A study of Mus musculus with 6 samples.

Results

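Cullin-RING ligases were described in MA-10 cells and in STARKO1 cells, through the mRNAs of their subunits and substrate receptors. Members were the protein-coding genes of the deposited table whose symbol names a cullin, RBX1, an SKP protein, DDB1 or DDB2, a CAND exchange factor, or a receptor of the F-box, KLHL, KCTD, SPOP or DCAF families, with KEAP1 and BTRC named in full. The rule used symbols and no measured value, and it found 122 of the 14774 genes in the table. MA-10 is a mouse tumor Leydig cell line with wild type Star, and STARKO1 is a line grown from 1 cell of MA-10 after CRISPR/Cas9 cutting in Star exon 2, the gene of the steroidogenic acute regulatory protein. Each line gave 3 libraries of total RNA from cells without hormone treatment. A difference between the lines therefore belongs to 1 clone and its parent line, and the deletion cannot be told apart from other changes that the clone carries. The study's statistics section speaks in general of independent experiments, but nothing in the sources used here says of these libraries that the 3 of a line came from separate cultures, so p-values measure the spread between these libraries, which may be technical. In RNA from whole cultures, fewer cells of a kind and less RNA per cell cannot be told apart.

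A cullin is a scaffold. Its one end holds RBX1, a RING protein that recruits the ubiquitin-conjugating enzyme, and its other end holds an adaptor with a receptor that picks the substrate. CUL1 takes F-box proteins through SKP1, CUL3 takes BTB proteins such as the KLHL and KCTD families and SPOP directly, and CUL4A and CUL4B take DCAF proteins through DDB1. CUL2 and CUL5 use elongins B and C, and CUL7 works with FBXW8. Attachment of NEDD8 switches a cullin on, the COP9 signalosome removes it, and CAND1 and CAND2 exchange receptors on the bare cullin. In Leydig cells these ligases act, as elsewhere, on regulators of the cell cycle, the oxidative stress response and signalling.

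The libraries held from 14114349 to 19530054 estimated counts. CPM here are counts scaled to the library, with TMM correcting the library sizes. MA-10 replicate 1 stood apart from the other MA-10 libraries. Its log2 CPM correlated with the STARKO1 libraries at 0.956 to 0.959, and with MA-10 replicates 2 and 3 at 0.897 and 0.931, while MA-10 replicates 2 and 3 correlated at 0.979. The 7SL RNA took 1.81% of counts in MA-10 replicate 1, 14.4% and 6.63% in MA-10 replicates 2 and 3, and 1.82% to 2.37% in STARKO1, and its part in the results below was not tested. The targeted gene matched the labels. Star had 60.9, 109 and 61.4 CPM in the MA-10 libraries and 2.06, 2.71 and 2.02 CPM in the STARKO1 libraries, with no overlap (log2 fold change −5.09, SE 0.331, adjusted p = 0.00121). Adjusted p are Benjamini-Hochberg values of edgeR's quasi-likelihood test over all 11939 genes tested, and log2 fold changes are STARKO1 over MA-10. All 12 Leydig cell markers checked were detected, with a summed level of 2256 to 2895 CPM in MA-10 and 2003 to 2093 CPM in STARKO1, without overlap. At an adjusted p under 0.05, 1 of the 12 was called, lower in STARKO1 (adjusted p = 0.00268), beside 4.74% of all genes called lower. The Sertoli cell markers Sox9, Amh and Wt1 were not in the table, and 4 of 9 were, with 692 to 777 CPM in MA-10 and 795 to 829 CPM in STARKO1. Germ cell and macrophage markers, with 1 of 9 and 4 of 8 in the table, summed to at most 3.55 and 10.3 CPM in any library. Only 2 of 7 endothelial markers were in the table, and 1 of them was called. They summed to 26.4 to 41.5 CPM in MA-10 and 118 to 124 CPM in STARKO1. Only 3 of 9 peritubular and fibroblast markers were in the table, 2 of them tested and called. These summed to 18.9 to 23.2 CPM in MA-10 and 1.72 to 2.71 CPM in STARKO1, so both sums rest on few genes. The part of these markers in the results below was not tested.

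Of the 122 members, 118 had enough counts to be tested. Klhl10, Klhl33, Fbxo41 and Kctd11 did not, with at most 46 counts over the 6 libraries. Values that are not whole occurred for 59 members, among them Fbxw7, Skp1a, Cul3, Rbx1 and Fbxo9. In every library, 76 members exceeded 10 CPM and 110 exceeded 1 CPM. At an adjusted p under 0.05, 8 of the 118 tested members were differentially expressed, beside 9.04% of all genes tested. The members' share was 6.78%, below that background, so the number of calls is not in itself a result about these ligases. Fbxo9, Fbxw7 and Fbxo32 were higher in STARKO1, beside 4.30% of all genes, and Dcaf4, Kctd17, Klhl8, Fbxo2 and Fbxo4 were lower, beside 4.74%. Each of the 8 is a substrate receptor or, for Kctd17, a receptor subunit of a CUL3 ligase, as are most of the 118 tested members. No cullin (0 of 7) and no gene of the RING, SKP1, DDB1 to DDB2 or CAND group (0 of 6) passed the test, beside 9.04% of all genes. With so few genes in these groups, the absence of calls does not set them apart from the receptors. Leaving out MA-10 replicate 1 moved the members called from 8 to 83 (54 higher, 29 lower), beside 65.7% of all genes. Leaving out any other single library left 2 or 3 members called, Dcaf4 and Kctd17 each time.

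Promoter windows are printed for 4 of the 8 differentially expressed receptors, so that the letters at their starts can be read beside the values. The windows are from RefSeq on build GRCm38.p6 and run from 250 bases before to 50 bases after a transcript start, on the strand of the gene, 5′ to 3′. Capitals mark a GC box, searched as GGGCGG on both strands. No window is given here for Kctd17, Fbxo32 and Klhl8. Dcaf4 (chr12:83520216-83520515, plus strand) is the receptor that fell to 0 counts, and Fbxo9 (chr9:78109016-78109315, minus strand) shares its window with the start of the neighbouring gene Ick. Fbxo2 (chr4:148160418-148160717, plus strand) is shown beside these as a gene that fell next to relatives of the same family, and Fbxw7 (chr3:84815327-84815626, plus strand, 1 of 3 windows of this gene) as the most highly counted of the 8. Dcaf4 and Fbxo9 have 2 windows each in the table, of which 1 is printed and counted.
Dcaf4: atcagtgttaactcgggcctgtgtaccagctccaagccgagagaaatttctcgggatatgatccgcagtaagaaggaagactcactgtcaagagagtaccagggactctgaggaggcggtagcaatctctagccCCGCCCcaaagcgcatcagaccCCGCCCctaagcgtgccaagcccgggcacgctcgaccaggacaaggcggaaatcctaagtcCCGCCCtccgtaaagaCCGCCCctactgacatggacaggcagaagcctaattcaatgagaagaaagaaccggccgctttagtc
Fbxo9: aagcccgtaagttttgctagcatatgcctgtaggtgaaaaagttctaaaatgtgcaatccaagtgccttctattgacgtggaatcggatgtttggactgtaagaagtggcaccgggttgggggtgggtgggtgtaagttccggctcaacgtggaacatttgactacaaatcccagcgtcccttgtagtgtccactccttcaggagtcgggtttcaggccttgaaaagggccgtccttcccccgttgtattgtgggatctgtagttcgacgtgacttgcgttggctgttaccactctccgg
Fbxo2: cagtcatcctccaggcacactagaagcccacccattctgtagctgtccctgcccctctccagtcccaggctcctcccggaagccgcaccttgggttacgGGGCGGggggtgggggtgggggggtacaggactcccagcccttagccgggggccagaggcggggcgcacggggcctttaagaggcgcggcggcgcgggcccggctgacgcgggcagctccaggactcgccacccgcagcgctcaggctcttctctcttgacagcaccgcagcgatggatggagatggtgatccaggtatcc
Fbxw7: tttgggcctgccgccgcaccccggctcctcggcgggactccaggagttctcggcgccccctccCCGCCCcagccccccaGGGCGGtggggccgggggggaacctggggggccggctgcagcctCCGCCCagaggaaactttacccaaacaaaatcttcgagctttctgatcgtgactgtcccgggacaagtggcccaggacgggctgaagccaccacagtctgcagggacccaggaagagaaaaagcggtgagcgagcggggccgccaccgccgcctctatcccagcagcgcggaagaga

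The Dcaf4 window held 4 GC boxes and 18 CpG, the Fbxw7 window 3 GC boxes, the Fbxo2 window 1 and the Fbxo9 window 0 with 14 CpG. A GC box stood in 72 of the 93 members with a window (77.4%), in 67.3% of the 8779 tested genes with one, and in 35.7% of all 32851 windows. The window of Fbxo4 (chr15:3979524-3979823, minus strand) had 7 CpG and no GC box, where the median of the members was 22 CpG. The other motifs sought, on both strands, were the CCAAT box (CCAAT), the E-box (CACGTG), the cAMP response element (TGACGTCA), the ETS motif (CCGGAAGT), the TATA box (TATAAA) and the NR5A1 half-site (CAAGGTCA), and none of them was in the 5 windows of differentially expressed members. They stood in 40.1%, 10.6%, 3.37%, 9.59%, 6.36% and 1.03% of the tested genes' windows. A match is a description of the letters and not of a bound factor.

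Dcaf4, a DDB1- and CUL4-associated factor encoded at chr12:83520466-83541921 on the plus strand, was detected in every MA-10 library and in no STARKO1 library. Its level was 10.3, 10.1 and 12.2 CPM in MA-10 (180, 116 and 139 counts) and 0 counts in all 3 STARKO1 libraries. The MA-10 mean was 10.9 ± 1.19 CPM (SD, n = 3). With 3 counts in a library as the most that a count of 0 allows, at most 0.177 CPM in any STARKO1 library, the level was at least 61.4-fold lower in STARKO1 (adjusted p = 0.00220). The call held without any single library (adjusted p from 2.58e-05 to 0.0289). MA-10 replicate 1, which stood with STARKO1 over most genes, lay between its MA-10 partners for Dcaf4.

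Kctd17, at chr15:78428564-78439304 on the plus strand, encodes a KCTD protein known as the CUL3 receptor for trichoplein in ciliogenesis. It had 4.75, 12.3 and 7.75 CPM in MA-10 (83, 142 and 88 counts) and 0.129, 0 and 0.112 CPM in STARKO1 (3, 0 and 2 counts). The lines did not overlap, and the ratio of MA-10 to STARKO1 was 89.9 with a 95% counting interval of 38.1 to 279, which covers counting error only (adjusted p = 0.00474). This call too held without any single library, with adjusted p from 1.92e-05 to 0.0436.

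Dcaf4 and Kctd17 were the members with near-complete loss, at or under 3 counts in each STARKO1 library with at least 10 in each MA-10 library. Over all tested genes 21 had this pattern in STARKO1 and 30 had the reverse. The tested genes on either side were measured to see whether the loss ran past the gene. Zfyve1, on the minus strand with its near edge 4.64 kb past the end of Dcaf4, had 24.5, 13.4 and 13.6 CPM in MA-10 and 17.3, 17.0 and 14.4 CPM in STARKO1. Mpst, 14.6 kb before Kctd17, had 10.8, 9.37 and 7.13 CPM in MA-10 and 8.09, 9.84 and 9.21 CPM in STARKO1. The lines overlapped for both genes. Of the 3 nearest tested genes on each side of each member, 12 in all, 0 passed edgeR's quasi-likelihood test (adjusted p from 0.0687 to 0.964). An unadjusted p under 0.05 was seen for 3 (beside 37.6% of all genes), DESeq2 called 1 (beside 28.5%), and 5 were called without MA-10 replicate 1 (beside 65.7%). Some lay far away, up to 1519.5 kb for Pcnx, and the nearest tested gene after Kctd17, C1qtnf6, lay at 84.0 kb. A loss that ended before a distant neighbour would not show in it.

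**Figure D1:**
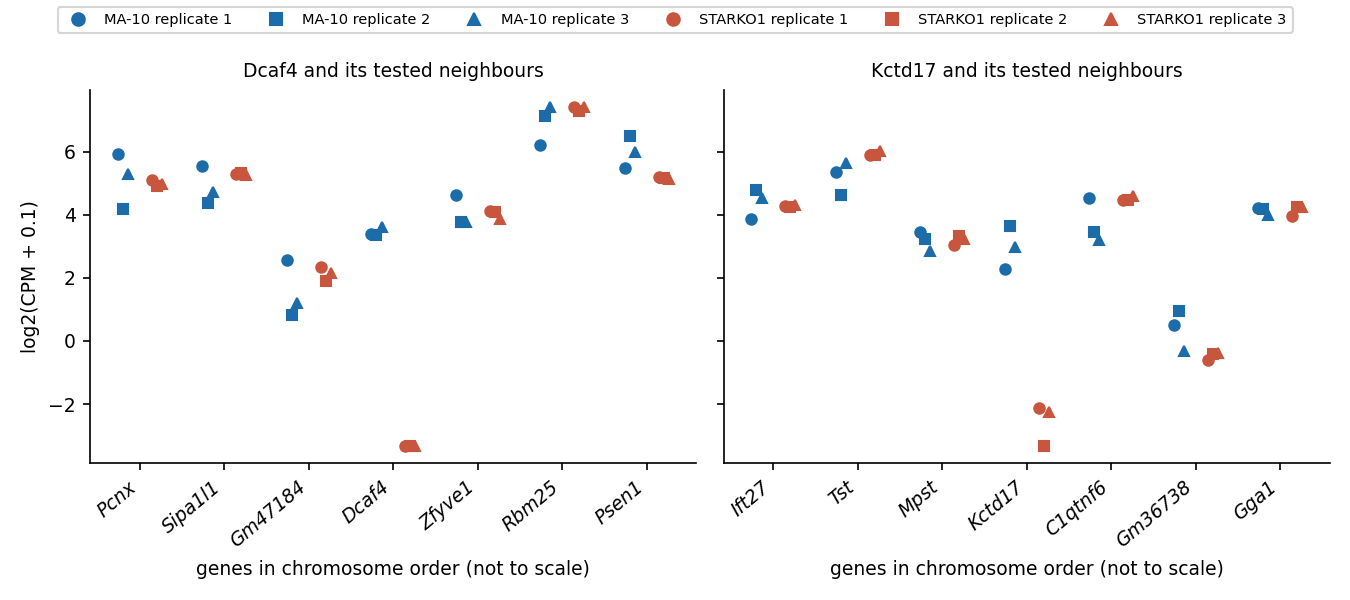
The vertical axis gives log2(CPM + 0.1) for Dcaf4 and Kctd17 and for the 3 nearest tested genes on each side, in chromosome order, and each point is a library. Dcaf4 and Kctd17 drop in all 3 STARKO1 libraries, while none of the 12 neighbours passed the test at an adjusted p under 0.05.

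Among the other DCAF genes, 11 were tested and 0 passed edgeR's test. In the family of 12, Dcaf4 included, 5 genes had an unadjusted p under 0.05 and DESeq2 called 4, beside 37.6% and 28.5% of all genes. Dcaf7, a receptor with one of the highest levels per length among the members (41.3 CPM per kb of exons, mean of the lines), had 258, 492 and 241 CPM in MA-10 and 166, 191 and 172 CPM in STARKO1. The lines did not overlap (log2 fold change −0.91, adjusted p = 0.0874). Dcaf11 had 29.4, 72.0 and 44.2 CPM in MA-10 and 23.5, 23.8 and 24.0 CPM in STARKO1, again without overlap (adjusted p = 0.0756). Dcaf15, the receptor to which aryl sulfonamide drugs bind, went the other way. Its level was 18.8, 5.03 and 6.87 CPM in MA-10 and 24.5, 24.5 and 27.5 CPM in STARKO1 (log2 fold change 1.30, adjusted p = 0.0975). The family's median log2 fold change was −0.33 beside −0.05 over all genes, and it turned to 0.11 with library size scaling alone, which itself moved the median of all genes by 0.43.

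Unlike Dcaf4 and Kctd17, the 6 other differentially expressed members were each lost when some single library was left out. Library size scaling alone also ended the calls of Fbxo32, Fbxo2, Klhl8 and Fbxo4 (adjusted p = 0.0673, 0.0748, 0.131 and 0.329), and upper quartile scaling those of Klhl8 and Fbxo4 (0.0516 and 0.0576). Of the F-box genes, 54 were tested and edgeR called 5 (9.26%, beside 9.04% of all genes), 3 higher and 2 lower. DESeq2 called 12, beside 28.5% of all genes.

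Fbxo9, at chr9:78081499-78109066 on the minus strand, encodes an F-box protein with a tetratricopeptide region. It had 8.19, 11.9 and 8.37 CPM in MA-10 and 30.8, 26.4 and 27.0 CPM in STARKO1. Every STARKO1 library lay above every MA-10 library, and the mean rose from 9.48 ± 2.08 to 28.1 ± 2.35 CPM, 2.96-fold (log2 fold change 1.57, SE 0.203, adjusted p = 0.00891). The call was kept without MA-10 replicate 1 or 2 and was lost without MA-10 replicate 3 (adjusted p = 0.0586) or without STARKO1 replicate 1, 2 or 3 (0.0586, 0.0576 and 0.0633).

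The start of Ick, a gene on the opposite strand, lies 126 bases from that of Fbxo9. Ick had 14.7, 14.3 and 15.1 CPM in MA-10 and 14.6, 13.9 and 14.3 CPM in STARKO1 (log2 fold change −0.04, adjusted p = 0.843). The ratio of Fbxo9 to Ick was 0.556, 0.83 and 0.556 in MA-10 and 2.1, 1.9 and 1.89 in STARKO1, with no overlap. The two-sided exact permutation test gave p = 0.1, the smallest that 3 against 3 allows. This pair and the next one were chosen after their values were seen.

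Fbxw7, at chr3:84815268-84979199 on the plus strand, encodes the receptor for cyclin E, MYC and NOTCH. Its level was 41.8, 46.0 and 60.2 CPM in MA-10 and 96.6, 95.6 and 93.9 CPM in STARKO1. With no overlap between the lines, the mean rose from 49.3 ± 9.66 to 95.4 ± 1.33 CPM, 1.93-fold (log2 fold change 0.95, SE 0.182, adjusted p = 0.0292). The call was kept without MA-10 replicate 1 or 3, and was lost without MA-10 replicate 2 (adjusted p = 0.0648) or STARKO1 replicate 1, 2 or 3 (0.136, 0.148 and 0.155).

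Fbxo32, at chr15:58175879-58214933 on the minus strand, encodes atrogin-1, known from muscle atrophy. It was a low mRNA here, with 1.32, 0.867 and 0.969 CPM in MA-10 and 3.53, 3.30 and 2.64 CPM in STARKO1. All STARKO1 libraries exceeded all MA-10 libraries, 3.00-fold in the mean (log2 fold change 1.56, SE 0.289, adjusted p = 0.0265). The call was kept without MA-10 replicate 1 and lost without MA-10 replicate 2 or 3 (adjusted p = 0.0601 and 0.101) or STARKO1 replicate 1, 2 or 3 (0.147, 0.147 and 0.120).

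Fbxo2, at chr4:148160621-148166425 on the plus strand, encodes an F-box protein that binds high-mannose glycans on glycoproteins. It had 2.35, 5.38 and 5.28 CPM in MA-10 and 1.33, 0.943 and 0.955 CPM in STARKO1. MA-10 replicate 1 was the lowest MA-10 library and lay above all of STARKO1. The mean fell from 4.34 ± 1.72 to 1.08 ± 0.222 CPM (log2 fold change −1.98, SE 0.397, adjusted p = 0.0329). The call was kept without MA-10 replicate 1, and was lost without MA-10 replicate 2 or 3 (adjusted p = 0.0791 and 0.126) or STARKO1 replicate 1, 2 or 3 (0.137, 0.157 and 0.172).

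Fbxo44, a relative of Fbxo2, starts 138 bases away on the opposite strand. Its level was 8.19, 4.25 and 4.31 CPM in MA-10 and 6.71, 5.60 and 5.28 CPM in STARKO1, with overlap (adjusted p = 0.897). The ratio of Fbxo2 to Fbxo44 was 0.287, 1.27 and 1.22 in MA-10 and 0.199, 0.168 and 0.181 in STARKO1 (two-sided exact permutation p = 0.1, the smallest that 3 against 3 allows). Fbxo6, another glycoprotein-binding relative beside them, had an adjusted p of 0.680. Among all members, 22 have a gene that starts within 1000 bases on the opposite strand. In 19 of these pairs both genes were tested, and 1 gene of the pair was differentially expressed in 3 pairs and both genes in 0. As 9.04% of all genes tested were called, so few pairs cannot show whether genes with near starts move together. The third pair is Ddb2 with A330069E16Rik, called lower in STARKO1 at an adjusted p of 0.0435. MA-10 replicate 1 was near STARKO1 for A330069E16Rik (5.38, 98.6 and 58.3 CPM in MA-10 and 3.10, 2.30 and 3.26 CPM in STARKO1). Its call was kept without MA-10 replicate 1, was lost without MA-10 replicate 2 or 3 (0.0944 and 0.144) or STARKO1 replicate 1, 2 or 3 (0.177, 0.174 and 0.185), and was lost with library size scaling alone (0.0722) and with at least 10 counts in every library (0.0503).

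Fbxo4, at chr15:3965445-3979574 on the minus strand, encodes an F-box protein studied for cyclin D1 and the telomere protein TRF1. It had 22.2, 27.3 and 24.0 CPM in MA-10 and 14.7, 14.0 and 13.5 CPM in STARKO1. The lines did not overlap, and the mean fell from 24.5 ± 2.62 to 14.1 ± 0.566 CPM (log2 fold change −0.80, SE 0.156, adjusted p = 0.0314). The call was kept without MA-10 replicate 1 and lost without MA-10 replicate 2 or 3 (adjusted p = 0.0550 and 0.0990) or STARKO1 replicate 1, 2 or 3 (0.177, 0.164 and 0.183).

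**Figure D2:**
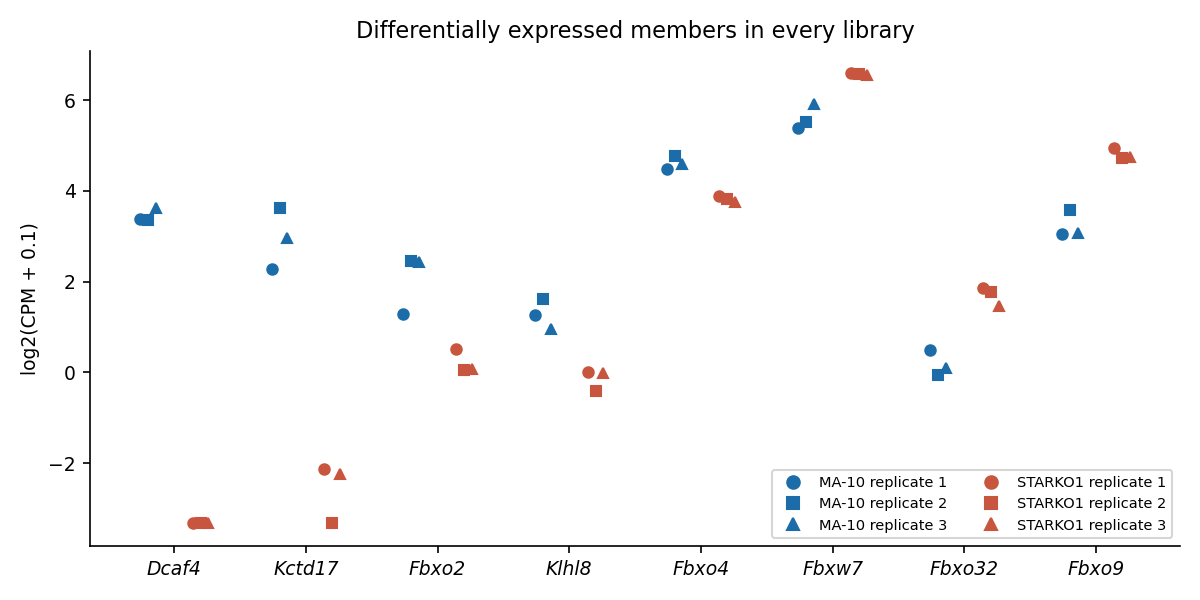
The vertical axis gives log2(CPM + 0.1) in each of the 6 libraries for the 8 differentially expressed members, with MA-10 in blue and STARKO1 in red. The lines do not overlap for any of the 8, and the widest gaps are those of Dcaf4 and Kctd17.

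Other F-box genes with well-known substrates did not pass the test. Skp2, the receptor for the CDK inhibitor p27, had 55.2, 39.2 and 34.4 CPM in MA-10 and 65.5, 66.2 and 67.0 CPM in STARKO1, without overlap (log2 fold change 0.62, adjusted p = 0.0841). Btrc, one of the receptors for beta-catenin and IκB, had 17.3, 35.5 and 26.3 CPM in MA-10 and 22.5, 19.9 and 18.4 CPM in STARKO1, with overlap (adjusted p = 0.330). Fbxw8, which pairs with CUL7, had 87.2, 20.4 and 28.3 CPM in MA-10 and 94.9, 103 and 107 CPM in STARKO1. For Fbxw8 the MA-10 replicate 1 library lay close to STARKO1 and far from its own line (log2 fold change 1.16, adjusted p = 0.151). In the group with leucine-rich repeats, 0 of 14 passed edgeR's test, 5 had an unadjusted p under 0.05, and DESeq2 called 4, again beside 37.6% and 28.5% of all genes.

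The scaffold and core genes came next in the order of roles. Of the 7 cullins, 0 passed edgeR's quasi-likelihood test, 1 had an unadjusted p under 0.05 and DESeq2 called 1. Over all genes these shares were 9.04%, 37.6% and 28.5%. Cul1 had 71.9, 74.4 and 71.3 CPM in MA-10 and 74.9, 71.6 and 66.6 CPM in STARKO1 (adjusted p = 0.885). Cul4a had 140.4, 99.5 and 113 CPM in MA-10 and 118, 124 and 110.2 CPM in STARKO1 (adjusted p = 0.983), and its close relative Cul4b 88.2, 97.3 and 95.9 CPM and 97.9, 99.5 and 96.9 CPM (adjusted p = 0.751). The lines overlapped for these 3 scaffolds.

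Cul5 and Cul2 were the cullins whose libraries did not overlap (2 of 7, 28.6%, beside 42.5% of all genes), in opposite directions. Cul5 had 53.9, 46.3 and 53.6 CPM in MA-10 and 68.2, 64.6 and 73.3 CPM in STARKO1 (log2 fold change 0.42, adjusted p = 0.0949). Cul2 had 51.1, 54.1 and 64.3 CPM in MA-10 and 46.3, 45.8 and 42.5 CPM in STARKO1 (log2 fold change −0.33, adjusted p = 0.165). Its direction turned with library size scaling alone, to 0.12. Cul3 had 199.6, 249 and 354 CPM in MA-10 and 201, 201 and 196 CPM in STARKO1, with MA-10 replicate 1 at the STARKO1 level (adjusted p = 0.230). Cul7 had 148, 76.3 and 91.8 CPM in MA-10 and 117, 121 and 124 CPM in STARKO1, where MA-10 replicate 1 was above and its partners below STARKO1 (adjusted p = 0.598).

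Of the 6 genes for RING, linker and exchange subunits, 0 passed edgeR's test, 3 had an unadjusted p under 0.05 and DESeq2 called 2. The shares over all genes were again 9.04%, 37.6% and 28.5%. Rbx1, the RING subunit, had 40.8, 122 and 103 CPM in MA-10 and 47.4, 43.1 and 44.6 CPM in STARKO1. MA-10 replicate 1 again lay at the STARKO1 level, and the libraries overlapped (log2 fold change −0.97, adjusted p = 0.115). Skp1a, the CUL1 linker, had 158, 263 and 253 CPM in MA-10 and 200.1, 209.6 and 202 CPM in STARKO1 (adjusted p = 0.672). Ddb1, the CUL4 linker, had 303, 256 and 257 CPM in MA-10 and 320.2, 335 and 354 CPM in STARKO1, without overlap (log2 fold change 0.31, adjusted p = 0.231).

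Ddb2, which recognises ultraviolet damage in DNA, was low, with 6.47, 6.16 and 5.37 CPM in MA-10 and 5.59, 5.54 and 4.05 CPM in STARKO1 (adjusted p = 0.415). The exchange factors were higher in every STARKO1 library than in any MA-10 library, as were 21.5% of all genes, but missed the threshold. Cand1 had 157, 89.2 and 110.0 CPM in MA-10 and 199.7, 211 and 221 CPM in STARKO1 (log2 fold change 0.82, adjusted p = 0.0673). Cand2 had 39.5, 14.9 and 19.5 CPM in MA-10 and 53.7, 48.9 and 62.1 CPM in STARKO1 (log2 fold change 1.15, adjusted p = 0.0774).

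Per length, Skp1a was the highest member (96.9 CPM per kb of exons, mean of the lines), followed by Cul3 at 47.9 and Ddb1 at 47.5. The libraries of Cul3 and Ddb1 overlap on that scale. Dcaf7 followed at 41.3, Spop at 35.7, Fbxo5 at 28.0 and Cul4b at 24.8 CPM per kb. The order of the means below Skp1a differed between the lines. In MA-10 the mean of Dcaf7 was 53.9 CPM per kb, next to Cul3 at 54.9 and above Ddb1 at 42.5. The MA-10 libraries had 42.1, 80.1 and 39.4 CPM per kb of Dcaf7, so its place above Ddb1 rests on MA-10 replicate 2. In MA-10 replicates 1 and 3 Dcaf7 lay below Ddb1, which had 47.2 and 40.2 CPM per kb. In STARKO1 the mean of Dcaf7 was 28.7, below Ddb1 at 52.5, Cul3 at 40.9, Spop at 37.4 and Fbxo5 at 31.7. Cul4a made up 38.2% to 49.0% of the CUL4 mRNA by CPM per kb in MA-10 and 40.8% to 43.0% in STARKO1. Cand1 made up 72.3% to 79.7% of the summed CAND mRNA in MA-10 and 70.0% to 73.9% in STARKO1. The ranges of the lines overlapped in both pairs, which, like the 2 pairs of receptors given for CPM per kb below, were chosen after the values were seen.

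**Figure D3:**
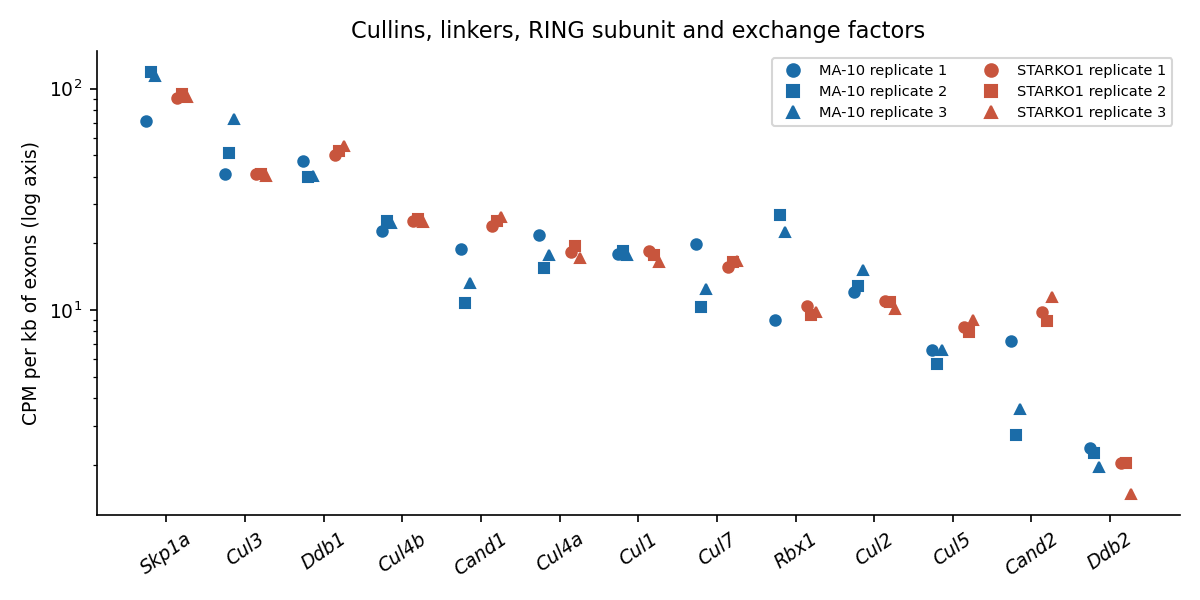
The vertical log axis gives CPM per kb of exons in each library for the 7 cullins and the 6 RING, linker and exchange genes, ordered by their mean. Skp1a is the highest and Ddb2 the lowest, and MA-10 replicate 1 sits with STARKO1 for Rbx1 and Cul3.

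The BTB-Kelch receptors had the highest median of the roles. Of 24 genes 22 were tested, and 17 had a positive log2 fold change, beside 5626 of all 11939 genes tested. The median was 0.41 beside −0.05 over all genes. The median was 0.52 with upper quartile scaling, 0.75 with library size scaling alone and 0.39 with gene length offsets. Over all genes these medians were 0.10, 0.38 and −0.03. The role's sum did not separate the lines, because MA-10 replicate 1 reached 610.5 CPM, inside the STARKO1 range of 604 to 632 CPM. Its partners stayed lower, replicate 2 at 417 CPM and replicate 3 at 441 CPM. MA-10 replicate 1 was nearer to STARKO1 for 15 of the 22 genes (68.2%, beside 69.9% of all genes). Of the 22, edgeR called 1, lower in STARKO1 (4.55%, beside 9.04% of all genes), and DESeq2 called 6, of which 4 were higher (beside 28.5% of all genes). The gene called by edgeR, Klhl8, at chr5:103861973-103911260 on the minus strand, had 2.29, 2.95 and 1.85 CPM in MA-10 and 0.903, 0.648 and 0.899 CPM in STARKO1. No library of one line reached the other (mean 2.36 ± 0.553 against 0.817 ± 0.146 CPM, log2 fold change −1.52, SE 0.314, adjusted p = 0.0357). The call was kept without MA-10 replicate 1 and lost without MA-10 replicate 2 or 3 (adjusted p = 0.0731 and 0.0828) or STARKO1 replicate 1, 2 or 3 (0.177, 0.176 and 0.177).

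Of the 22 tested BTB-Kelch genes, 6 were higher in every STARKO1 library than in any MA-10 library, beside 21.5% of all genes. None of these 6 passed the test. With 2 that were lower, 36.4% of the role did not overlap, beside 42.5% of all genes. Klhl2, a receptor for WNK kinases, had 33.8, 23.5 and 22.8 CPM in MA-10 and 46.2, 43.3 and 47.5 CPM in STARKO1 (log2 fold change 0.77, adjusted p = 0.0564). It passed with DESeq2 (adjusted p = 0.00676) and with gene length offsets, which called 10.3% of all genes. Klhl5 had 29.7, 29.3 and 32.6 CPM in MA-10 and 41.9, 42.8 and 46.4 CPM in STARKO1 (log2 fold change 0.52, adjusted p = 0.0623). Klhl42, a receptor for the katanin subunit p60, had 39.5, 17.2 and 18.0 CPM in MA-10 and 51.7, 54.5 and 54.0 CPM in STARKO1 (log2 fold change 1.10, adjusted p = 0.0748). These 3 genes, with the DCAF genes, Fbxw8 and Kctd5 given here that did not pass, were chosen after their values were seen.

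Keap1, the CUL3 receptor that holds down the transcription factor NRF2, had 35.1, 26.3 and 29.6 CPM in MA-10 and 36.3, 40.2 and 41.1 CPM in STARKO1. The lines did not overlap (log2 fold change 0.37, adjusted p = 0.154). Spop, a CUL3 receptor mutated in prostate cancer, had 127, 98.4 and 97.0 CPM in MA-10 and 127, 112 and 116 CPM in STARKO1, with overlap (adjusted p = 0.572). Spop made up 94.4% to 95.8% of the summed Spop and Spopl mRNA by CPM per kb in MA-10 and 95.8% to 96.3% in STARKO1. For the beta-catenin receptors, Fbxw11 made up 90.6% to 93.4% of the sum with Btrc in MA-10 and 90.8% to 92.7% in STARKO1.

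In the KCTD family 15 of 16 genes were tested, and edgeR called 1, Kctd17, while DESeq2 called 3, all lower (beside 28.5% of all genes). Counting Kctd17, 5 of the 15 had an unadjusted p under 0.05, beside 37.6% of all genes. Kctd5, a CUL3 receptor for G protein beta-gamma subunits, had 36.6, 126 and 82.7 CPM in MA-10 and 36.5, 39.4 and 41.2 CPM in STARKO1, so that MA-10 replicate 1 lay inside the STARKO1 range (log2 fold change −1.07, adjusted p = 0.112).

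**Figure D4:**
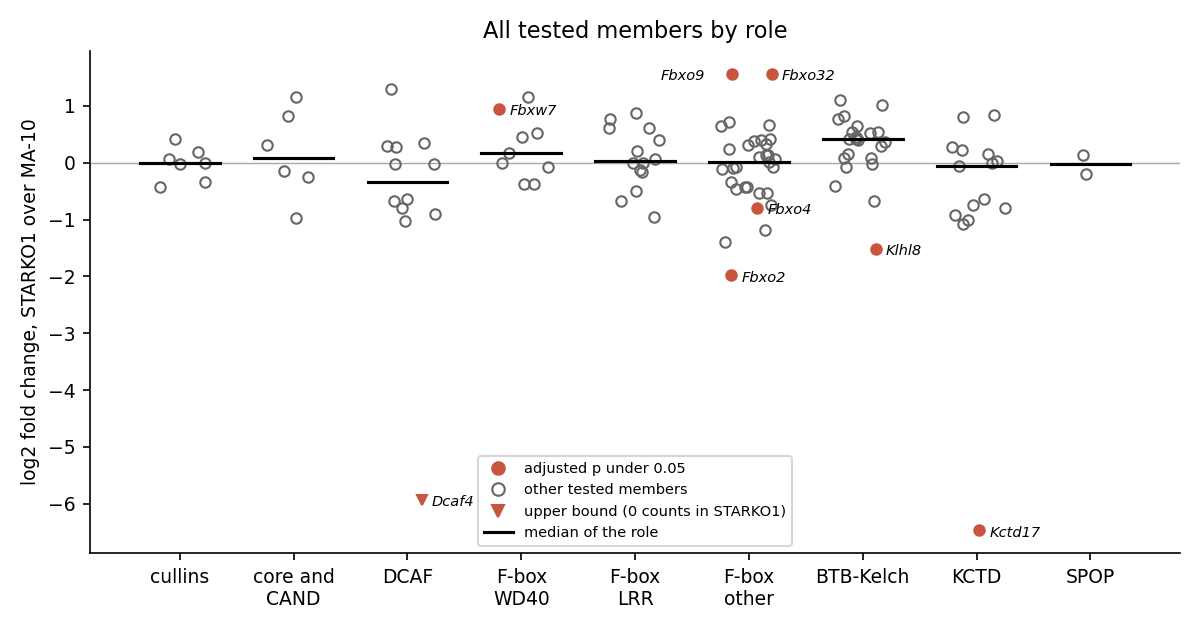
The vertical axis gives the log2 fold change of STARKO1 over MA-10 for the 118 tested members by role, with filled points for the 8 members at an adjusted p under 0.05 and bars for the median of each role. Most members lie within 1 unit of 0, and Dcaf4 is drawn at its bound of at least 61.4-fold lower. The BTB-Kelch bar is the highest at 0.41, although the summed CPM of this role in MA-10 replicate 1 lay inside the STARKO1 range.

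Rbx1, Cul3, Fbxw8 and Kctd5 share a layout in which MA-10 replicate 1 is near STARKO1. MA-10 replicate 1 was nearer to the STARKO1 mean than to the mean of MA-10 replicates 2 and 3 for 79 of the 118 members (66.9%), beside 69.9% of all genes. The members shared this layout with the rest of the transcriptome. Across members the median coefficient of variation was 25.6% in MA-10 and 6.09% in STARKO1, beside 30% and 6.46% over all genes. The libraries of the lines did not overlap for 46 members (39.0%), beside 42.5% of all genes, with 28 members higher (beside 21.5%) and 18 lower (beside 21.0%). At an unadjusted p under 0.05 there were 38 of the 118 members, 19 in each direction. Of all 11939 genes tested there were 4493 (37.6%), 1786 higher and 2707 lower.

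**Figure D5:**
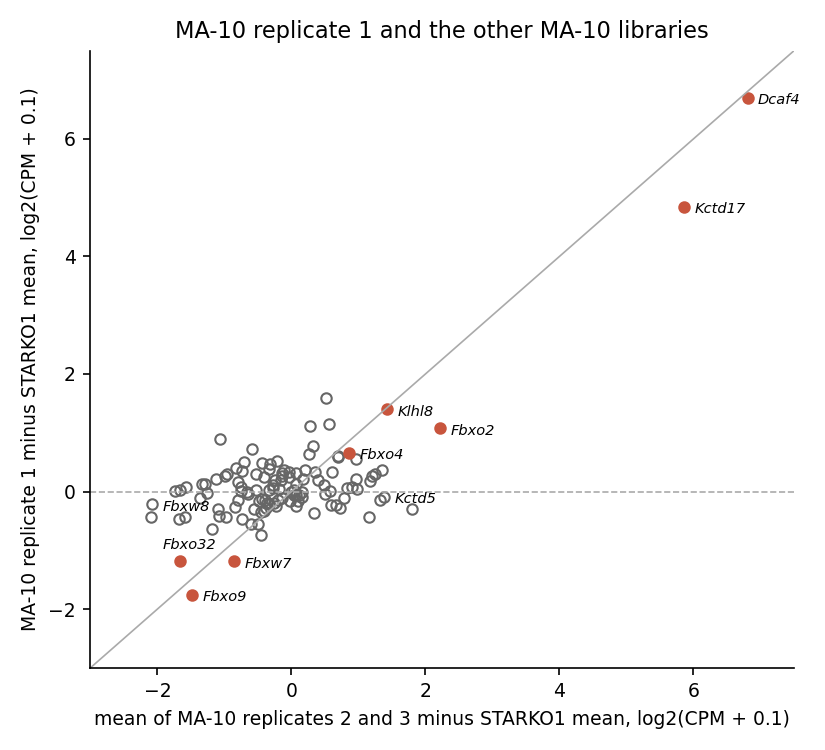
Each point is a tested member, with its difference from the STARKO1 mean in MA-10 replicates 2 and 3 on the horizontal axis and in MA-10 replicate 1 on the vertical axis, both on the log2(CPM + 0.1) scale. Most points lie near the dashed line at 0, where MA-10 replicate 1 equals STARKO1. Dcaf4, Kctd17 and the 6 other differentially expressed members keep their side of it, which their selection by a test on these same libraries favours. For Fbxo2, MA-10 replicate 1 was still nearer to STARKO1 than to its MA-10 partners.

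Other genes of the pathway were counted from lists, with 142 genes tested and 9 differentially expressed (6.34%, beside 9.04% of all genes). Of these 1 was higher and 8 were lower, beside 4.30% and 4.74% of all genes. The NEDD8 and COP9 signalosome list had 24 genes tested and 0 called by edgeR. In this list 8 had an unadjusted p under 0.05 and DESeq2 called 7, beside 37.6% and 28.5% of all genes. Nedd8 itself, singled out of this list after its values were seen, had 83.0, 522 and 277 CPM in MA-10 and 77.8, 78.9 and 72.1 CPM in STARKO1 (adjusted p = 0.0735), the layout seen for Rbx1. The ubiquitin-conjugating enzymes had 0 of 7 called by edgeR (3 at an unadjusted p under 0.05, 2 by DESeq2), BTB proteins under other symbols 0 of 21 (2 and 1), and other DDB1 receptors 0 of 19 (4 and 3). Over all genes edgeR called 9.04%, 37.6% had an unadjusted p under 0.05 and DESeq2 called 28.5%.

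Receptors of CUL2 and CUL5 had 35 genes tested and 5 differentially expressed (14.3%, beside 9.04% of all genes). In this list 16 had an unadjusted p under 0.05 and DESeq2 called 16, beside 37.6% and 28.5% of all genes. Asb6, a SOCS-box receptor, was higher in STARKO1 (log2 fold change 1.12, adjusted p = 0.0492). Klhdc1 (−1.56, 0.0289), Pcmtd1 (−1.59, 0.0318), Pcmtd2 (−0.79, 0.0365) and Socs4 (−0.66, 0.0448) were lower, in the same units of log2 fold change and adjusted p. All 5 calls were kept without MA-10 replicate 1, and were lost without any other single library, with adjusted p from 0.0501 to 0.212. Library size scaling alone ended all 5 (0.0578 to 0.558). Upper quartile scaling and testing with no filter ended those of Asb6, Socs4 and Pcmtd2, and a minimum of 10 counts in every library those of Asb6 and Socs4.

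Of 20 genes activated by NRF2, the substrate of KEAP1, 3 were differentially expressed and all 3 were lower, beside 4.74% of all genes called lower. An unadjusted p under 0.05 was seen for 7 of the 20 and DESeq2 called 7, all lower, beside 37.6% and 28.5% of all genes in either direction. Slc7a11, the cystine transporter subunit, fell by 0.75 on the log2 scale (adjusted p = 0.0270) and Srxn1, sulfiredoxin, by 1.13 (adjusted p = 0.0483). Ftl1, the ferritin light chain, had 1792, 4253 and 3904 CPM in MA-10 and 577, 603 and 534 CPM in STARKO1 (log2 fold change −2.54, adjusted p = 0.0147). Its values were not whole in any of the 6 libraries and near-identical copies of this gene exist, so its level is uncertain. Among mRNAs of cell cycle substrates of these ligases, 1 of 17 was called (5.88%, beside 9.04% of all genes). It was the kinase gene Wee1 (log2 fold change −0.87, adjusted p = 0.0250). These 4 calls were kept without MA-10 replicate 1. Without MA-10 replicate 2 they were kept too (0.0325 to 0.0429), and without MA-10 replicate 3 or any STARKO1 library they were lost (0.0710 to 0.207). Upper quartile scaling ended the calls of Slc7a11 (adjusted p = 0.0707) and Srxn1 (0.0846), and library size scaling alone those of Slc7a11 (0.418), Srxn1 (0.255) and Wee1 (0.271). The call of Srxn1 was also lost with no filter, with at least 10 counts in every library and with gene length offsets (0.0589 to 0.0666).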

How the data were processed

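RNA of MA-10 and STARKO1 cells, 3 libraries each, had been sequenced by the authors from a stranded total RNA kit. The authors deposited 1 table of estimated counts per gene with no normalization, and the submitters' processing notes name STAR 2.6.1d, Partek and build mm10, without their roles. Some values are not whole, and how reads shared between genes were counted is not given in the sources used here. Groups came from the sample labels. The estimated counts were rounded and tested in R 4.3.3 with edgeR 4.0.16 (filterByExpr, TMM, glmQLFit and glmQLFTest, Benjamini-Hochberg adjustment over all genes tested, threshold 0.05). The script was tested on simulated counts. SDs are over 3 libraries. Exon lengths were from GENCODE on GRCm38 and promoter windows from RefSeq. Alternatives were DESeq2 1.42.0, 2 other scalings, 2 filters, gene length offsets, a replicate block, other thresholds and leaving out each library. Fixed genes were named whatever their values (cullins, RING, linker and CAND genes, Keap1, Spop, Skp2, Btrc and Star), with members and list genes called, members near 0 in 1 line, and their neighbours. The members and lists were chosen with earlier results of these data known.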

Additional observations from a re-analysis of the deposited data

How the results depend on the processing

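With all libraries 1079 genes, 8 members and 9 genes of the pathway lists were differentially expressed. These counts were 3395, 28 and 40 with DESeq2, 330, 4 and 1 with library size scaling alone (63.6% of the 330 higher in STARKO1, against 513 of 1079), 829, 6 and 4 with upper quartile scaling, 947, 8 and 5 with no filter, and 695 and 6 with at least 10 counts in every library, where Dcaf4 and Kctd17 could not be tested. At an adjusted p under 0.10 they were 3471, 28 and 41, and under 0.01 they were 179, 3 and 0. Leaving out 1 library gave 89 to 7990 genes, 2 to 83 members and 0 to 89 list genes. The upper ends came without MA-10 replicate 1, and without any other library at most 511 genes and 3 members were called. The cause was not tested.

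As to pairing, deviations from the line means correlated at −0.0165, 0.0455 and 0.0201 between libraries that share a replicate number. The mean over other pairs was −0.0078. What the number stands for is not given in the sources used here, and 3 libraries per line cannot exclude a shared preparation. With the replicate block 234 genes, 3 members (Dcaf4, Kctd17 and Fbxo9) and 0 list genes were called.

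Directions that turned belong to genes that did not pass the test. With library size scaling alone the log2 fold change was 0.41 for Cul1, 0.12 for Cul2, 0.06 for Cul3, 0.38 for Cul4a, 0.18 for Ddb2, 0.37 for Skp1a, 0.16 for Btrc, 0.26 for Zfyve1, 0.36 for Ift27 and 0.39 for Mpst. With upper quartile scaling it was 0.12 for Cul1, 0.13 for Cul4a, 0.03 for Skp1a and Zfyve1, 0.01 for Ift27 and 0.12 for Mpst. With no filter it was 0.03 for Cul1, 0.05 for Cul4a and 0.04 for Mpst, and with at least 10 counts in every library 0.02 for Cul4a and 0.01 for Mpst. Cul4a had 0.01 with DESeq2 and with the replicate block, Mpst 0.00 with the replicate block, and gene length offsets gave 0.08 for Skp1a and 0.17 for Mpst. Leaving out 1 library turned some directions, over ranges of −0.04 to 0.05 for Cul1, −0.11 to 0.23 for Cul4a, −0.65 to 0.23 for Pcnx, −0.24 to 0.35 for Zfyve1, −0.30 to 0.05 for Ift27, −0.16 to 0.22 for Mpst and −0.04 to 0.20 for Gga1.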
